A study of Mus musculus with 5 samples.

Results

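The complement genes followed here, in mouse macrophages, were those for the 3 chains of C1q (C1qa, C1qb and C1qc), the central component C3, the alternative pathway proteins factor B (Cfb) and properdin (Cfp), the anaphylatoxin receptors C3ar1 and C5ar1, and the C1 inhibitor Serping1. They were chosen by name and are 9 of the 49246 genes with a value in every library. The cells were bone marrow-derived macrophages from wild-type C57BL/6 mice, grown from marrow for 6 days with CSF1 or with L929-conditioned medium. The labels do not say which of these growth factor sources each culture had, and give 96% of the cells as positive for F4/80 and CD11b. All cultures received IL-4 at 10 ng/ml for 24 h. Before IL-4, 3 of them (replicates 3, 4 and 5) had CBR-5884 at 30 µM, a small-molecule inhibitor of the serine synthesis enzyme PHGDH, and 2 (replicates 3 and 5) had the solvent. Whether replicates are separate mice is not given in the labels, so the p-values describe the spread between these libraries, which may be technical. The comparison asks how the inhibitor alters RNA levels in macrophages exposed to IL-4.

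Complement is a cascade of blood and tissue proteins that tags microbes and dying cells for uptake. The classical pathway starts when C1q binds antibody or a dying cell, and the alternative pathway is carried by C3, factor B and properdin. Both cleave C3, which leaves C3b on the target and releases C3a, and a later step releases C5a. C3a and C5a act on the receptors encoded by C3ar1 and C5ar1. Most complement in blood comes from the liver, but C1q and properdin are made largely by myeloid cells, and macrophages are a main source of C1q in tissue.

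Levels are given as FPKM, the deposited Cufflinks estimate of fragments scaled to transcript length and to the fragments mapped in a library, summed over the transcripts of a gene. The ratio of coverage to FPKM implied 28310000 to 30700000 fragments per library. Across the 14181 genes above 0 in every library, Pearson's r of log2(FPKM + 1) was 0.991 to 0.992 within groups and 0.988 to 0.990 between them, which is across genes and not across independent samples. All 7 macrophage markers were expressed, at a summed 2876 to 2956 FPKM under CBR-5884 and 2669 to 2838 under solvent. Csf1r, the receptor for CSF1, was at 846 to 999 FPKM over the 5 libraries. Of 5 B cell markers and 6 T and NK cell markers none reached a mean of 1 FPKM. In bulk RNA, fewer cells of a type and less RNA per cell cannot be told apart.

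All 9 genes lie on the minus strand of their chromosomes. The 3 C1q genes are neighbours on chromosome 4, within 18675 nt of each other (136880129 to 136898803, GRCm38), in the order C1qb, C1qc and C1qa along the chromosome, with gaps of 3616 and 2851 nt between them. RefSeq promoters (GRCm38.p6) were at hand for 6 of the 9 genes; none was matched for C1qa, Cfb or Serping1. The stretches below are those of 4 genes whose RNA was lower under CBR-5884 and of C3ar1, whose RNA was higher, so that they can be set side by side. They are read 5′ to 3′ on the minus strand, before the annotated start of the gene, at chr4:136886201-136886350 for C1qb, chr4:136893066-136893164 for C1qc, chr17:57228137-57228286 for C3, chrX:20931556-20931705 for Cfp and chr6:122856162-122856311 for C3ar1. Capitals mark a match to a searched motif.
C1qb: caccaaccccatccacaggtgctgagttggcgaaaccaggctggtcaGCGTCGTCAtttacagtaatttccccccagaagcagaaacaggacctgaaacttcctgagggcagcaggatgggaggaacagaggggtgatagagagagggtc
C1qc: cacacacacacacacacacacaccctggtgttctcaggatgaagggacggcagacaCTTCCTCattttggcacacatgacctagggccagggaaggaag
C3: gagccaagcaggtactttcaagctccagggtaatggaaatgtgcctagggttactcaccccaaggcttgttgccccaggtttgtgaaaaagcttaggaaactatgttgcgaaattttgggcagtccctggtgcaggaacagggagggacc
Cfp: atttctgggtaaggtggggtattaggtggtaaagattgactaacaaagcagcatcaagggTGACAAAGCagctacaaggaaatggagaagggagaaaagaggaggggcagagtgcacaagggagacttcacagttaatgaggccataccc
C3ar1: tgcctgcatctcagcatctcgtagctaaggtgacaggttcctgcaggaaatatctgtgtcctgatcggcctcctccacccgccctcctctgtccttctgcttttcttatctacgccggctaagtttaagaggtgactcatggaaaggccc

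Short motifs of 5 factors or factor families were searched on both strands of each RefSeq window, which runs from before the RefSeq start to just after it, and distances are from that start. The core of the antioxidant response element, TGACNNNGC, was found 103 bases before the start of C1qb (opposite strand, printed as GCGTCGTCA) and 90 bases before that of Cfp (TGACAAAGC). It is in 12.39% of the 32851 promoter windows of the genome, and in 2 of the 6 at hand here. The PU.1 core GAGGAAG was found in C1qc, 194 bases before its RefSeq start on the opposite strand, and is in 13.63% of all windows. The interferon response motif GAAANNGAA was found in C5ar1, 66 bases before its RefSeq start and within the span of the gene given below, and is in 8.56% of all windows. The STAT6 motif, TTC and GAA with 4 bases between them, and the MAF motif TGCTGAC were in none of the 6, against 6.95% and 4.67% of all windows. TGCTGAC and TGACNNNGC can overlap in their letters TGAC. The matches describe letters in a window and not sites of binding.

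RNA for all 3 C1q chains was lower in every CBR-5884 library than in both solvent libraries, C1qa the most. RNA for C3 and properdin was lower as well, at about the same proportion as C1qa, while RNA for the C3a receptor was higher. None of these differences passed the threshold over all genes. Differences were fitted with limma on log2(FPKM + 1) over the 10770 genes averaging 1 FPKM or more. A gene counted as called when its p, adjusted by Benjamini-Hochberg over them, was below 0.05. Of the 9 members 7 passed the filter on low values and 2, Cfb and Serping1, did not. Of the 7, 0 were called, where 0.223% of all genes tested were (24 of 10770). At an unadjusted limma p below 0.05, 5 members were lower and 1 was higher, against 12.4% and 7.24% of all genes tested. The groups did not overlap in any of the 7: CBR-5884 was lower in 6 (24.9% of all genes tested) and higher in 1 (16.6%). The median log2 fold change was -0.49 over the 7 and -0.03 over all genes tested.

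That background moved with a further scaling between libraries, beyond that to mapped fragments in FPKM. On the TPM scale, 8.62% of genes were lower and 9.92% higher at an unadjusted limma p below 0.05. There the filter was applied to TPM, so the genes tested also differed (11797 in place of 10770). After median-ratio scaling the shares were 9.31% and 10.1%, and after quantile normalization 8.77% and 10.8%. Under each of these 3 scalings 5 members were lower and 1 was higher at that level, as without scaling. The groups of C5ar1 overlapped under all 3, which left 5 lower members without overlap. Of 746 genes with a mean of at least 100 FPKM, 34.5% were lower in every CBR-5884 library, as were 4 of the 5 members that abundant (C1qa, C1qb, C1qc and Cfp).

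**Figure D1:**
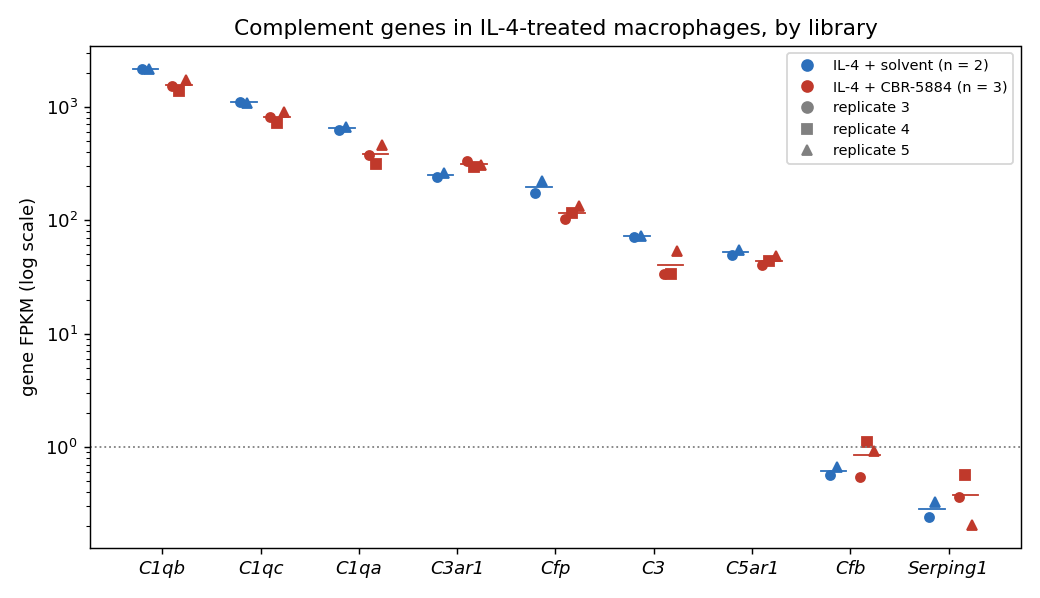
FPKM of the 9 complement genes on a log axis, 1 point per library, with a line at the group mean (blue, 2 solvent libraries; red, 3 CBR-5884 libraries; the shape gives the replicate number and the dotted line the filter of 1 FPKM). The red points lie below the blue ones for the 3 C1q genes, Cfp, C3 and C5ar1, above them for C3ar1, and among them for Cfb and Serping1.

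C1qb encodes the B chain of C1q, which is built from equal numbers of A, B and C chains. C1qb (chromosome 4, 136880129 to 136886187; 3 exons) was at 1521, 1381 and 1737 FPKM in replicates 3, 4 and 5 given CBR-5884 and at 2170.1 and 2169 in solvent replicates 3 and 5. It ranked 20 of 10770 genes tested by mean FPKM, so C1q RNA was among the most abundant in these cells. The 3 CBR-5884 libraries all lay below the solvent pair, replicate 5 nearest to it. The group means were 1546 ± 179 (SD, n = 3) and 2169.5 ± 0.89 (SD, n = 2), a ratio of 0.713. The log2 fold change was -0.49 (SE 0.11, 95% interval -0.78 to -0.21, limma adjusted p = 0.141). The solvent SD rests on 2 values that lay close together, and limma's SE draws on the spread of all genes.

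C1qc, the gene of the C chain (136889804 to 136893065; 3 exons), was at 822, 719 and 898.5 FPKM under CBR-5884 and at 1107 and 1091 under solvent. The order of the libraries was that of C1qb: CBR-5884 replicate 4 was the lowest and replicate 5 highest of its group. The means were 813 ± 90.2 (SD, n = 3) and 1099 ± 11.7 (SD, n = 2), a ratio of 0.740, with a log2 fold change of -0.44 (SE 0.10, 95% interval -0.72 to -0.16, limma adjusted p = 0.155). C1qa, the gene of the A chain (136895917 to 136898803; 3 exons), was at 374, 312 and 461 FPKM under CBR-5884 and at 631 and 664 under solvent. Again the groups did not overlap, and CBR-5884 replicate 4 was lowest and replicate 5 highest of its group. The means were 383 ± 74.7 (SD, n = 3) and 647 ± 23.4 (SD, n = 2), a ratio of 0.591, with a log2 fold change of -0.77 (SE 0.18, 95% interval -1.24 to -0.31, limma adjusted p = 0.147). The groups of all 3 genes stayed separate under the 3 scalings between libraries, the alternatives that could reorder them. Over 18 alternative ways of processing, the adjusted limma p of the 3 lay between 0.121 and 0.371.

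Estimation error within a library was small beside these differences. Coverage of the C1q transcripts implied 9818 to 19542 reads for C1qa, 26137 to 38426 for C1qc and 45429 to 68126 for C1qb per library. The deposited 95% interval of C1qa was 452.7 to 469.5 FPKM in CBR-5884 replicate 5, the highest of its group, and 619.9 to 641.1 in solvent replicate 3, the lower of the pair. Such intervals cover estimation within a library and not the spread between cultures.

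Because FPKM is per length, the 3 chains can be compared within a library, where scaling between libraries cancels. C1qa made up 13.8%, 12.9% and 14.9% of the summed C1q FPKM in replicates 3, 4 and 5 given CBR-5884 and 16.1% and 16.9% in solvent replicates 3 and 5. C1qc made up 30.2%, 29.8% and 29.0% under CBR-5884 and 28.3% and 27.8% under solvent, and C1qb 56.0%, 57.3% and 56.1% against 55.5% and 55.3%. The share of C1qa was thus lower in all 3 CBR-5884 libraries, and those of C1qb and C1qc were higher, for C1qb by little. A lower share of C1qa by itself raises the joint share of C1qb and C1qc, whose FPKM were lower under CBR-5884. No test was made of these shares. C1qb RNA was the most abundant and C1qa RNA the least in all 5 libraries, and the summed C1q FPKM was 2412 to 3097 under CBR-5884 and 3908 and 3923 under solvent.

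**Figure D2:**
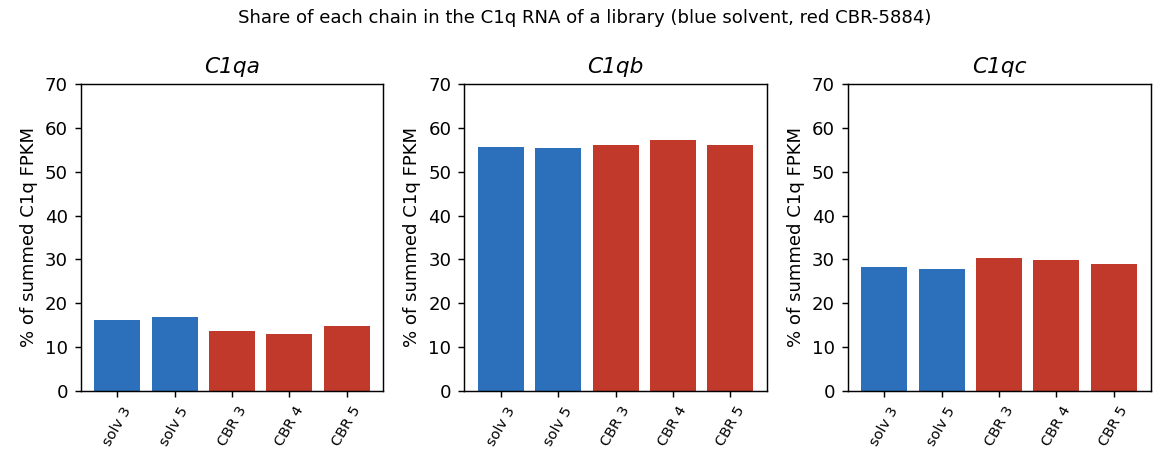
Share of each chain in the summed FPKM of C1qa, C1qb and C1qc, in percent, 1 bar per library (blue, 2 solvent libraries; red, 3 CBR-5884 libraries). C1qa is at 16.1% and 16.9% under solvent and at 12.9% to 14.9% under CBR-5884, while the bars of C1qb differ by little.

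C3 encodes the protein that all pathways cleave, and C3b, its larger fragment, marks targets for uptake by macrophages. C3 (chromosome 17, 57203970 to 57228136; 41 exons in the expressed transcript) was at 33.9, 33.5 and 53.8 FPKM under CBR-5884 and at 71.0 and 73.0 under solvent. CBR-5884 replicates 3 and 4 were alike, and replicate 5 lay between them and the solvent libraries. The means were 40.4 ± 11.6 (SD, n = 3) and 72.0 ± 1.37 (SD, n = 2), a ratio of 0.561. The log2 fold change was -0.85 (SE 0.24, 95% interval -1.48 to -0.23, limma adjusted p = 0.179). Without CBR-5884 replicate 5 it was -1.07 and C3 was called (by limma, adjusted p = 0.0447), the only call of a member in any of the 18 alternatives; in the others the adjusted p of C3 was at most 0.397.

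Fibroblasts also make C3. The 6 fibroblast and stromal markers summed to 10.8 to 17.1 FPKM under CBR-5884 and 17.9 to 18.9 under solvent. Col1a1, a collagen chain, was at 4.67, 6.88 and 4.17 FPKM under CBR-5884 and at 8.19 and 7.83 under solvent (by limma, adjusted p = 0.249), but the groups of the other collagen genes of the list, Col1a2 and Col3a1, overlapped. Pdgfra, a growth factor receptor gene, was lower without overlap, at 0.105, 0.0561 and 0.0346 FPKM under CBR-5884 and at 0.107 and 0.127 under solvent. Dcn and Lum, proteoglycan genes, had higher means under CBR-5884 (0.438 against 0.392 FPKM and 0.0261 against 0.00891 FPKM), with overlap. Of the 6, Col1a1 and Col1a2 reached a mean of 1 FPKM. C3 and Col1a1 were both lower under CBR-5884 without overlap, while within that group replicate 5 was highest in C3 and lowest in Col1a1. The part of these cells in the level of C3 was not tested.

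Properdin, the product of Cfp, binds and stabilises the C3-cleaving enzyme of the alternative pathway. Cfp (X chromosome, 20925454 to 20931555; 9 exons) was at 102, 116 and 134 FPKM under CBR-5884 and at 174 and 222 under solvent. The groups did not overlap, and the means were 117 ± 16.1 (SD, n = 3) and 198 ± 33.8 (SD, n = 2), a ratio of 0.591. The log2 fold change was -0.75 (SE 0.16, 95% interval -1.19 to -0.32, limma adjusted p = 0.142). In solvent replicate 5, 35.9 FPKM of the 222 came from a transcript that Cufflinks assembled in that library alone. With reference transcripts only, solvent replicate 5 was at 186 FPKM and the log2 fold change was -0.63 (by limma, adjusted p = 0.209).

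Factor B, the product of Cfb, supplies the protease of that enzyme, and its RNA was near the limit of measurement. Cfb (chromosome 17, 34856374 to 34862518) was at 0.541, 1.10 and 0.923 FPKM under CBR-5884 and at 0.564 and 0.669 under solvent. Its coverage implied 39 to 84 reads per library, the groups overlapped, and its mean of 0.760 FPKM kept it out of the main test. With no filter on low values its log2 fold change was 0.19 (95% interval -0.23 to 0.61, limma adjusted p = 0.68). Of its 2825 exonic nt, 2246 are shared with Gm20547, an annotated gene on the same strand that was listed at 0 in all 5 libraries, so its value is uncertain.

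C3ar1, the receptor for C3a, differed in the other direction from C1q, C3 and properdin. C3ar1 (chromosome 6, 122847138 to 122856161; 2 exons) was at 337, 297 and 309 FPKM under CBR-5884 and at 243 and 259 under solvent. All 3 CBR-5884 libraries lay above the pair. The means were 314 ± 20.3 (SD, n = 3) and 251 ± 11.4 (SD, n = 2), a ratio of 1.25, with a log2 fold change of 0.32 (SE 0.07, 95% interval 0.13 to 0.51, limma adjusted p = 0.146). In CBR-5884 replicates 4 and 5 and solvent replicate 3, Cufflinks added an assembled form that ran 718 to 809 nt past the annotated 3′ end, at 29.0 to 37.7 FPKM. With the reference transcript alone the 5 values were 336.5, 259.4 and 271.7 under CBR-5884 and 214.1 and 259.2 under solvent. CBR-5884 replicate 4 and solvent replicate 5 were then nearly equal, and the log2 fold change was 0.29 (by limma, adjusted p = 0.489).

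C5ar1, the receptor for C5a, differed by less. C5ar1 (chromosome 7, 16246743 to 16259540) was at 40.1, 43.9 and 48.2 FPKM under CBR-5884 and at 49.1 and 55.1 under solvent. CBR-5884 replicate 5 and solvent replicate 3 were close to each other. The means were 44.1 ± 4.05 (SD, n = 3) and 52.1 ± 4.25 (SD, n = 2), a ratio of 0.846, with a log2 fold change of -0.24 (SE 0.10, 95% interval -0.51 to 0.03, limma adjusted p = 0.297). C5ar2, the second C5a receptor, was at 3.02 to 3.68 FPKM under CBR-5884 and 3.22 to 3.47 under solvent (by limma, adjusted p = 0.915). With reference transcripts only, C5ar2 did not reach a mean of 1 FPKM, so these values rest largely on forms assembled by Cufflinks.

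C5ar1 had 2 annotated transcripts above 0, with starts 202 nt apart. The upstream one, ENSMUST00000050770 (3 exons), was at 23.1, 26.5 and 32.9 FPKM under CBR-5884 and at 26.5 and 33.0 under solvent. The other, ENSMUST00000168818 (2 exons), was at 16.98, 17.4 and 15.4 FPKM under CBR-5884 and at 22.6 and 22.1 under solvent. The first overlapped between groups and the second did not. The highest upper bound of the second under CBR-5884 was 18.96 FPKM, and its lowest lower bound under solvent was 20.3. These forms share most of their sequence, so how Cufflinks divided reads between them is uncertain. An alternative fit took only the most abundant reference transcript of each gene, which for C5ar1 is the upstream form. Its log2 fold change was -0.12 (by limma, adjusted p = 0.805). ENSMUST00000168818 was not tested by itself.

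**Figure D3:**
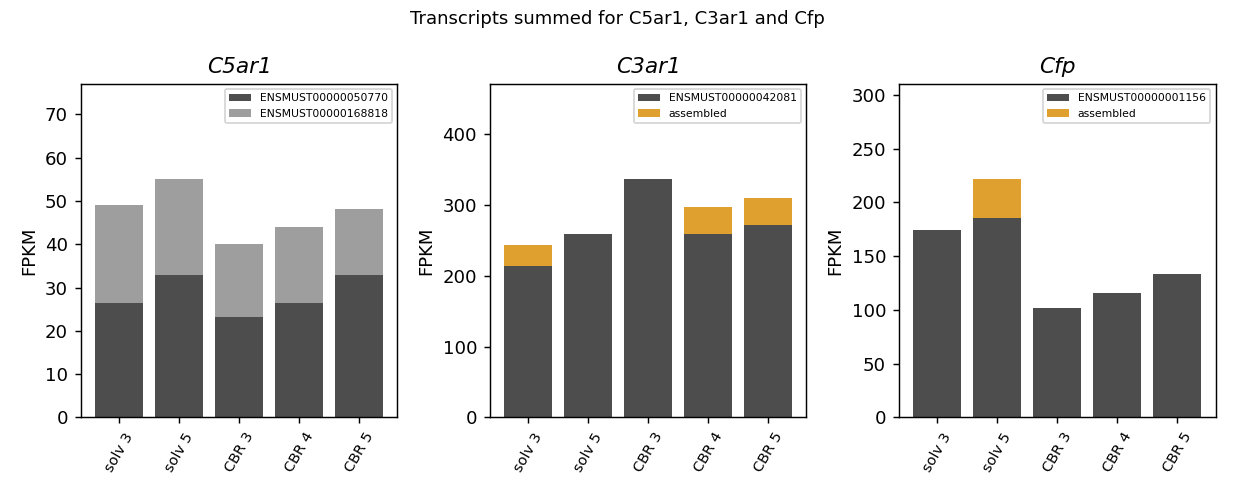
FPKM of the transcripts summed for C5ar1, C3ar1 and Cfp, stacked, 1 bar per library (the first 2 bars of a panel are the solvent libraries, the last 3 those under CBR-5884; orange, forms assembled by Cufflinks). The light grey form of C5ar1 is at 22.1 to 22.6 FPKM under solvent and 15.4 to 17.4 under CBR-5884, and the assembled forms appear in some libraries only.

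The receptors differed from each other in direction, and so their ratio differed between groups. C3ar1 FPKM was 8.39, 6.76 and 6.42 times that of C5ar1 in replicates 3, 4 and 5 given CBR-5884 and 4.96 and 4.71 times in solvent replicates 3 and 5. All 3 ratios under CBR-5884 were above the solvent pair; this ratio does not depend on scaling between libraries and was not tested.

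Serping1 encodes C1 inhibitor, the serpin that shuts down the proteases bound to C1q. Serping1 (chromosome 2, 84765387 to 84775444) was at 0.361, 0.571 and 0.206 FPKM under CBR-5884 and at 0.240 and 0.327 under solvent. The groups overlapped, and coverage implied 11 to 30 reads per library, so its level is uncertain at this depth. With no filter its log2 fold change was 0.10 (95% interval -0.24 to 0.43, limma adjusted p = 0.766).

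Under solvent, the members ranked by level as C1qb, C1qc, C1qa, C3ar1, Cfp, C3, C5ar1, Cfb and Serping1, and no neighbours overlapped between the 2 libraries. Under CBR-5884 the order was the same down to Cfp, but the gap between C1qa (312 to 461 FPKM) and C3ar1 (297 to 337 FPKM) closed to an overlap. C3 (33.5 to 53.8 FPKM) and C5ar1 (40.1 to 48.2 FPKM) also overlapped, and the mean of C5ar1 was then the higher. C3 was below C5ar1 in CBR-5884 replicates 3 and 4 and above it in replicate 5 and in both solvent libraries. The ranges of Cfb (0.541 to 1.10 FPKM) and Serping1 (0.206 to 0.571 FPKM) overlapped as well.

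**Figure D4:**
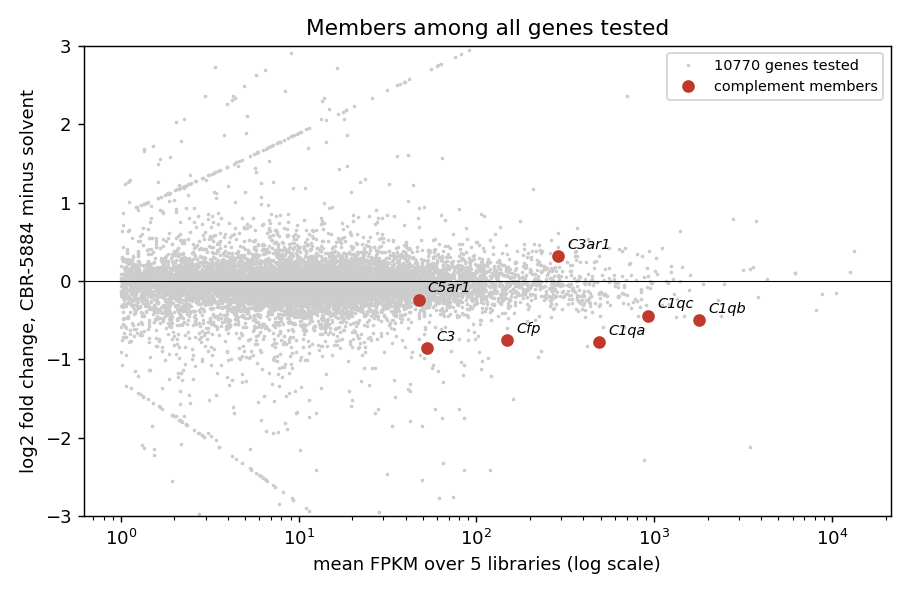
Log2 fold change (CBR-5884 minus solvent, on log2(FPKM + 1)) against mean FPKM on a log axis for the 10770 genes tested (grey) and the 7 tested complement members (red); 53 genes beyond ±3 are outside the axis. The C1q genes lie among the most abundant genes, below 0, and C3ar1 is the 1 member above 0; diagonal lines of grey points are genes listed at 0 in a group.

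The rest of the pathway was taken as 50 further genes in 7 groups by role. Of these, 36 had a mean below 1 FPKM, 14 of them listed at 0 in all 5 libraries, and 14 were tested. None of the 14 was called, beside 0.223% of all genes tested. At an unadjusted limma p below 0.05, 2 were lower and 1 was higher, beside 12.4% and 7.24% of all genes tested. The median log2 fold change was -0.06 over the 14 and -0.03 over all genes tested. CBR-5884 was lower without overlap in 4 and higher in 2, beside 24.9% and 16.6% of all genes tested.

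Genes for the enzymes of the cascade were mostly listed at or near 0. Of 7 other classical pathway genes only C1ra, a C1 protease, was tested, at 1.84, 2.15 and 1.34 FPKM under CBR-5884 and 2.26 and 2.84 under solvent (log2 fold change -0.36, limma adjusted p = 0.342; 0.13 with reference transcripts only). C2 was listed at 0 in all 5 libraries, as was Cfd, the protease that activates factor B, and C4b was at 0 to 0.022 FPKM. Of the 3872 exonic nt of C2, 1656 are shared with Gm20547 on the same strand, also listed at 0, so the value of C2 is uncertain. None of the 7 genes of the terminal pathway, which forms the membrane pore, reached a mean of 1 FPKM. In the lectin pathway 2 of 9 were tested. Fcna, a ficolin, was at 12.2, 5.85 and 8.79 FPKM under CBR-5884 and 12.0 and 9.29 under solvent, and Colec12, a scavenger receptor with a collectin domain, at 16.2, 12.3 and 11.4 against 12.0 and 10.2 (by limma, adjusted p = 0.66 and 0.503).

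Of 8 membrane regulators 2 were tested. Cr1l, which encodes the rodent membrane regulator Crry, was at 55.0, 44.0 and 44.6 FPKM under CBR-5884 and at 36.7 and 39.8 under solvent. Its groups did not overlap, and CBR-5884 was the higher, with a log2 fold change of 0.31 (SE 0.12, 95% interval -0.01 to 0.63, limma adjusted p = 0.263), but 0.01 with reference transcripts only. Cd59a, an inhibitor of the pore, was at 2.74 to 3.53 FPKM under CBR-5884 and 2.79 to 3.09 under solvent.

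Of 10 further receptors and binding proteins 8 were tested. Complement receptors CR3 and CR4, which take up targets coated with C3 fragments, share a β chain and differ in the α chain. Itgam, the α chain of CR3, was at 199, 221 and 208 FPKM under CBR-5884 and at 182 and 158 under solvent (log2 fold change 0.30, SE 0.09, limma adjusted p = 0.182); 3450 nt of its exons are shared with Gm49368 on the same strand, listed at 0. Itgax, the α chain of CR4, was at 328, 432 and 380 FPKM under CBR-5884 and at 425 and 423 under solvent, and Itgb2, the β chain of both, at 747, 839 and 804 against 843 and 735 (by limma, adjusted p = 0.508 and 0.93). C1qbp, a mitochondrial protein that also binds C1q, was at 41.8, 46.5 and 42.3 FPKM under CBR-5884 and at 54.1 and 51.3 under solvent (log2 fold change -0.27, SE 0.07, limma adjusted p = 0.162), and its log2 fold change turned to 0.14 with reference transcripts only. Calr, the chaperone calreticulin, which binds C1q at the cell surface, was at 429, 560.0 and 521 against 568 and 642 FPKM (by limma, adjusted p = 0.355). Cd93 and Lrp1 overlapped between the groups, with log2 fold changes of -0.002 and -0.10; that of Cd93 changed sign under all 3 scalings (by limma, adjusted p = 0.992 and 0.72).

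**Figure D5:**
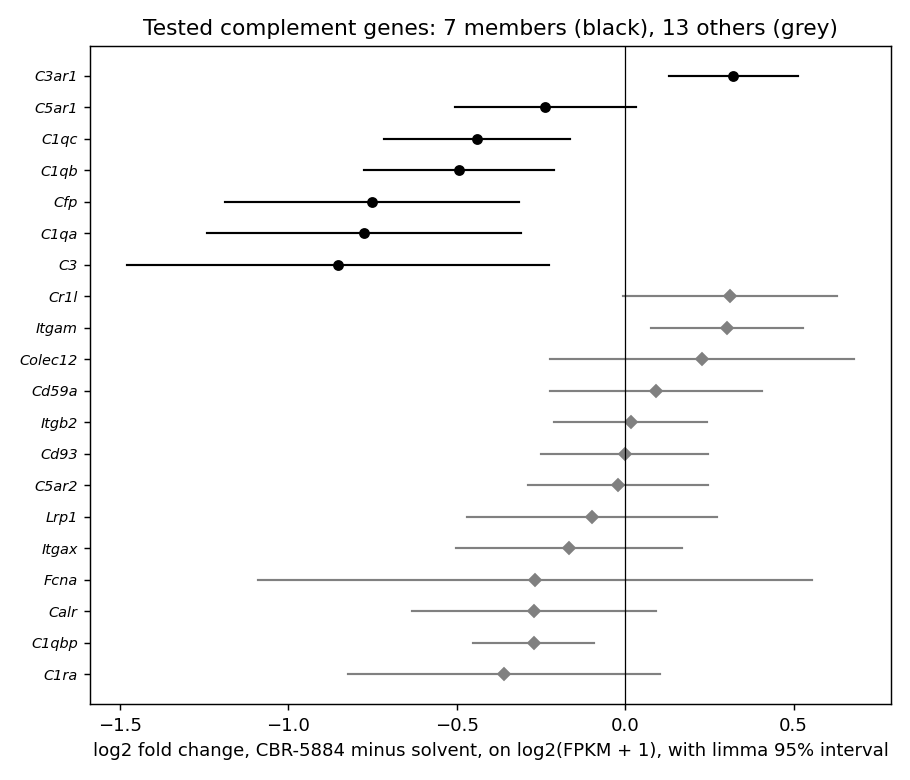
Log2 fold change with limma's 95% interval for the 7 tested members (black circles) and 13 of the 14 other tested complement genes (grey diamonds), CBR-5884 minus solvent on log2(FPKM + 1). C3, C1qa and Cfp lie at -0.85 to -0.75, and C3ar1, Cr1l and Itgam near 0.3; the intervals are not adjusted for the number of genes.

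Levels of myeloid markers were compared between the groups in the same way. Of 5 monocyte markers only Ccr2, the receptor for CCL2, reached a mean of 1 FPKM. It fell from 7.66 and 8.19 FPKM under solvent to 3.45, 3.71 and 3.54 (log2 fold change -0.97, limma adjusted p = 0.0395). That call held in 8 of 18 alternatives and was lost with any 1 library left out (by limma, adjusted p = 0.0647 to 0.174). The monocyte list summed to 4.31 to 5.19 FPKM under CBR-5884 and 8.76 to 9.83 under solvent, with no marker at 0 in every library. The gap between those sums is that of Ccr2: the other 4 markers were at 0 to 0.718 FPKM, and Vcan among them had the higher mean under CBR-5884 (0.426 against 0.322 FPKM). Of the 7 macrophage markers, Cd68 and Itgam were higher without overlap under CBR-5884, beside 16.6% of all genes tested. Fcgr1 was lower without overlap, beside 24.9%, and 0 of 7 were called, beside 0.223%. Adgre1, which encodes F4/80, was at 299 to 338 FPKM under CBR-5884 and 307 to 313 under solvent. The 6 dendritic cell markers summed to 0.645 to 1.30 FPKM under CBR-5884 and 1.397 to 2.53 under solvent. None of the 6 reached a mean of 1 FPKM, and among them only Xcr1 had the higher mean under CBR-5884 (0.0688 against 0.0484 FPKM). The 7 neutrophil markers summed to 10.3 to 12.7 FPKM under CBR-5884 and 9.58 to 20.0 under solvent. The part of these differences in the levels of complement RNA was not tested.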

How the data were processed

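Libraries of 5 macrophage cultures came from a directional kit and were read from 1 end for 75 bp, per the labels' protocols. The submitters' processing notes name Bowtie2, TopHat2 and Cufflinks, and mm10 (GRCm38). No version, annotation release or strand option is named in the sources used here. The deposited files hold, library by library, a Cufflinks FPKM for each Ensembl transcript and for transcripts assembled from reads.

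Ensembl transcripts were matched to genes with GENCODE M21, for 99.5% of those in each library. Assembled transcripts of 200 nt or more joined the gene on their strand that covered 50% or more of their exonic bases. Transcripts left out held 64.0% to 70.3% of the deposited FPKM and 8.55% to 10.2% of covered bases, so the TPM scale is over the genes kept. Gene FPKM was the sum. Genes averaging 1 FPKM or more were fitted with limma 3.58.1 in R 4.3.3 (two-sided, with a variance trend) on log2(FPKM + 1), which understates changes of low genes, without a term for the replicate number. An FPKM of 0 can be a failed estimate. The script was checked on simulated data.

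The members, lists, motifs and tests were chosen with earlier results of these data known. All 9 members were named, as was every other listed complement gene with a mean FPKM of at least 1 except 1 that is not reported here; genes below it that are named were chosen after their values were seen. Alternatives changed the pseudocount, filter, scaling, transcripts summed, variance prior and replicate term, and left out each library in turn.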

Additional observations from a re-analysis of the deposited data

How the results depend on the processing

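Over 18 alternatives none of the 7 tested members changed direction, but not all of these could have changed it. The filter and variance-prior settings leave the log2 fold change of a gene as it is. So did the transcript settings for C1qa, C1qb, C1qc and C3, and the replicate block repeats the estimate without CBR-5884 replicate 4. Cfb and Serping1 were fitted only with no filter. With 24 genes called in the main setting, limma called 9 with a filter at a mean of 5 FPKM, 38 with no filter, 39 with reference transcripts only and 19 to 89 with 1 library left out; the highest counts, 89 and 66, came without solvent replicate 3 and without solvent replicate 5, where the lone solvent library is assumed to vary like the CBR-5884 group. Members called were 0 to 1 with 1 library left out, and so were the genes of the whole complement list, the 1 being C3 without CBR-5884 replicate 5. With the replicate number as a block, limma called 3 genes and none of the tested members. The deviations of same-numbered libraries from their group means correlated at 0.07 for replicate 3 and 0.08 for replicate 5, and the labels do not say that the number marks a shared animal or day, so the pairing was not used.

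Of the other complement genes 6 changed direction in 19 values in all. The log2 fold change of C1ra turned to 0.13 and that of C1qbp to 0.14 with reference transcripts only and with the most abundant one. That of C5ar2 was 0.0132 on the TPM scale, 0.00806 with median ratios and 0.00795 after quantile normalization, and that of Cd93 was 0.0418, 0.0365 and 0.0481. With the replicate block Cd93 was at 0.068 and Itgb2 at -0.022, the same as without CBR-5884 replicate 4. With 1 library left out, C5ar2 ranged from -0.0872 to 0.023, Cd93 from -0.0704 to 0.068 (0.0027 without solvent replicate 5), Itgb2 from -0.0828 (without solvent replicate 5) to 0.115 and Lrp1 from -0.272 to 0.0753 (the latter without solvent replicate 3). The cause of these changes of direction was not tested. Depth limits Cfb and Serping1, at under 100 implied reads per library.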

Other observations

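Of the complement genes below the filter, Masp1 and C8g each had 1 library above 1 FPKM. Masp1, a protease of the lectin pathway, was at 3.16 FPKM in CBR-5884 replicate 3 and at 0.0629 to 0.456 in the other 4 libraries. C8g, a chain of the membrane pore, was at 1.51 FPKM in solvent replicate 5 and listed at 0 in the other 4. Vsig4, the C3b receptor of resident macrophages, was at 0 to 0.44 FPKM under CBR-5884 and at 0.312 and 0.0301 under solvent, so it was low in all 5 libraries. These genes were named after their values were seen.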
